A study of Mus musculus with 16 samples.

Results

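Activation of *Gm15551* without β-adrenergic stimulation was examined in 8 of the 16 samples of the series, the 4 control samples that received the sgRNA vectors against this long noncoding RNA (lncRNA) and the 4 control samples that received the empty vector. The 8 samples were chosen by the treatment and plasmid in their labels. All were wt1-SAM cells, 1 immortalized line of mouse brown preadipocytes with a stable CRISPR activation (SAM) system, differentiated with rosiglitazone, T3, dexamethasone, insulin, indomethacin and IBMX. Reverse transfection used 250 ng of plasmid on day 4 of differentiation, and cells were harvested on day 7. The sgRNA samples carried vectors for guides 2 and 7 together, called sgRNA below, and the empty vector carried no guide, so the presence of any guide and the activation of *Gm15551* cannot be told apart. Replicates carried the numbers 3, 4, 5 and 6 in both groups and were compared as 4 pairs. Whether they were separate cultures was not stated, so p-values measure the spread between these samples. The question was which genes and pathways differ when only the *Gm15551* plasmid is changed.

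In the SAM system a catalytically dead Cas9 is led by a guide RNA to the start of a gene, and RNA hairpins in the guide bind activator proteins that raise transcription there. Brown adipocytes burn lipid to make heat through the uncoupling protein *Ucp1*, which is turned on by β-adrenergic signals. Adipocytes also secrete acute-phase proteins, complement factors and chemokines, and these genes are classic targets of inflammatory signalling through NF-κB, C/EBP and STAT3 factors.

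*Gm15551* (ENSMUSG00000086679) is annotated on the minus strand of chromosome 3 of GRCm38, at chr3:126667329-126669044, as an antisense gene of 2 exons. Exon 1 (126668845 to 126669044) is 200 bases long and exon 2 (126667329 to 126667663) is 335 bases long. The gene lies inside an intron of *Camk2d*, which runs on the plus strand, and 0 of its exons overlap an exon of *Camk2d*. The guides are shown because they define the perturbation, and the RefSeq start region (GRCm38.p6, chr3:126668894-126669193, minus strand) because it holds the site of guide 2, in capitals with the NGG motif beside it.
Gm15551-2: cacttccagttatataagcg
Gm15551-7: agggttttttgctaaaacgg
Gm15551 start region: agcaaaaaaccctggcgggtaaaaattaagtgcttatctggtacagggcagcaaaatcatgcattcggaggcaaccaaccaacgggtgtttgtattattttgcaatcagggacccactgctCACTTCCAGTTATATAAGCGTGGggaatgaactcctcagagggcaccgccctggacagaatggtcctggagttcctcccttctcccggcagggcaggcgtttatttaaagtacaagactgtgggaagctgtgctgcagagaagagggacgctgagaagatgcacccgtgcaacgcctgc
Guide 2 matched positions 126669053 to 126669072, between 110 and 129 bases before the RefSeq start and just before the GENCODE start at 126669044. The last 13 bases of the reverse complement of guide 7 matched the upstream edge of this window, so its site runs past the stretch analysed here. Among 32851 start windows of 300 bases, only that of *Gm15551* held either guide with an NGG at up to 3 mismatches. Windows of *Exoc7*, *Kantr* and *Gm26730* held guide 7 with 4 mismatches, and the tested genes *Exoc7* and *Kantr* had log2 fold changes of -0.13 and -0.04 (adjusted p = 0.889 and 0.987 in the edgeR quasi-likelihood fit).

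Total counts per sample were 9053521 to 15940308 in empty vector samples and 11168958 to 12500264 in sgRNA samples. A single ribosomal RNA gene took 20.9%, 19.7%, 47.3% and 28% of the counts in empty vector replicates 3, 4, 5 and 6, and 18.6%, 17.8%, 20.2% and 19.7% in sgRNA replicates 3, 4, 5 and 6. In 4 of 4 pairs the empty vector sample had the larger share (means 29.0% ± 12.8 and 19.1% ± 1.11, SD, n = 4 each), and the exact two-sided sign-flip permutation test gave p = 0.125, the smallest value 4 pairs allow. Empty vector replicate 5 stands apart, and several list counts are also given without its pair or another. Levels are given as CPM, the counts of a gene relative to the TMM-scaled library size, and 3 counts correspond to 0.187 to 0.409 CPM.

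Adipocyte markers were abundant in both groups. *Adipoq*, which encodes the hormone adiponectin, had 569 to 1054.7 CPM in empty vector samples and 674 to 1067.2 CPM in sgRNA samples, and *Fabp4*, the fatty acid carrier, 11593.3 to 20391.0 CPM and 14673.1 to 19103.0 CPM. Of the brown markers, *Ebf2* had 14.6 to 21.9 CPM over the 8 samples, whereas *Ucp1* had at most 0.749 CPM with the empty vector and 1.03 CPM with the sgRNA, too low to be tested. *Cox8b* and *Cox7a1* were likewise too low to be tested, and *Cidea* (0.687 to 7.23 CPM) and *Prdm16* (0.543 to 2.28 CPM) were only slightly higher. Of other genes active in brown fat, *Elovl3* had means of 246 and 264 CPM and *Ppargc1a*, a coactivator of mitochondrial genes, 39.6 and 42.7 CPM with the empty vector and the sgRNA. Of 15 macrophage and leukocyte markers 1 was tested, *Cd68*, and 4 were at 0 in all 8 samples, including *Adgre1*. The summed level of those 15 markers was 9.68 to 15.7 CPM with the empty vector and 7.31 to 15.1 CPM with the sgRNA. The 10 endothelial markers summed to 2.61 to 4.24 and 3.11 to 4.1 CPM, with *Kdr* at 0, and the 10 skeletal muscle markers to 1.74 to 3.95 and 2.56 to 3.22 CPM, with *Myod1* and *Myog* at 0.

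The targeted gene was higher with the sgRNA in every pair. *Gm15551* had 1.12, 1.03, 0.409 and 1.41 CPM in empty vector replicates 3, 4, 5 and 6, from 18, 15, 3 and 13 counts. In sgRNA replicates 3, 4, 5 and 6 it had 4.1, 3.35, 1.49 and 3.51 CPM, from 56, 42, 19 and 44 counts. The groups did not overlap, with the lowest sgRNA sample (replicate 5) just above the highest empty vector sample (replicate 6), and replicate 5 was the lowest sample in both groups. Means were 0.994 ± 0.423 and 3.11 ± 1.13 CPM (SD, n = 4 each). The fitted ratio was 3.16, a log2 fold change of 1.66 with SE 0.23 (adjusted p = 0.0703 in edgeR), so the gene missed the threshold over all genes. Only 3 of the 12464 tested genes had a larger log2 fold change and 9 a smaller p. The gene passed in 2 of 16 alternatives, the robust fit and the fit without a filter on low counts (adjusted p = 0.0184), and the adjusted p was 0.101 to 0.476 with 1 pair left out. Since strand use in counting was not stated, reads from unspliced *Camk2d* RNA cannot be told apart from *Gm15551* reads.

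**Figure D1:**
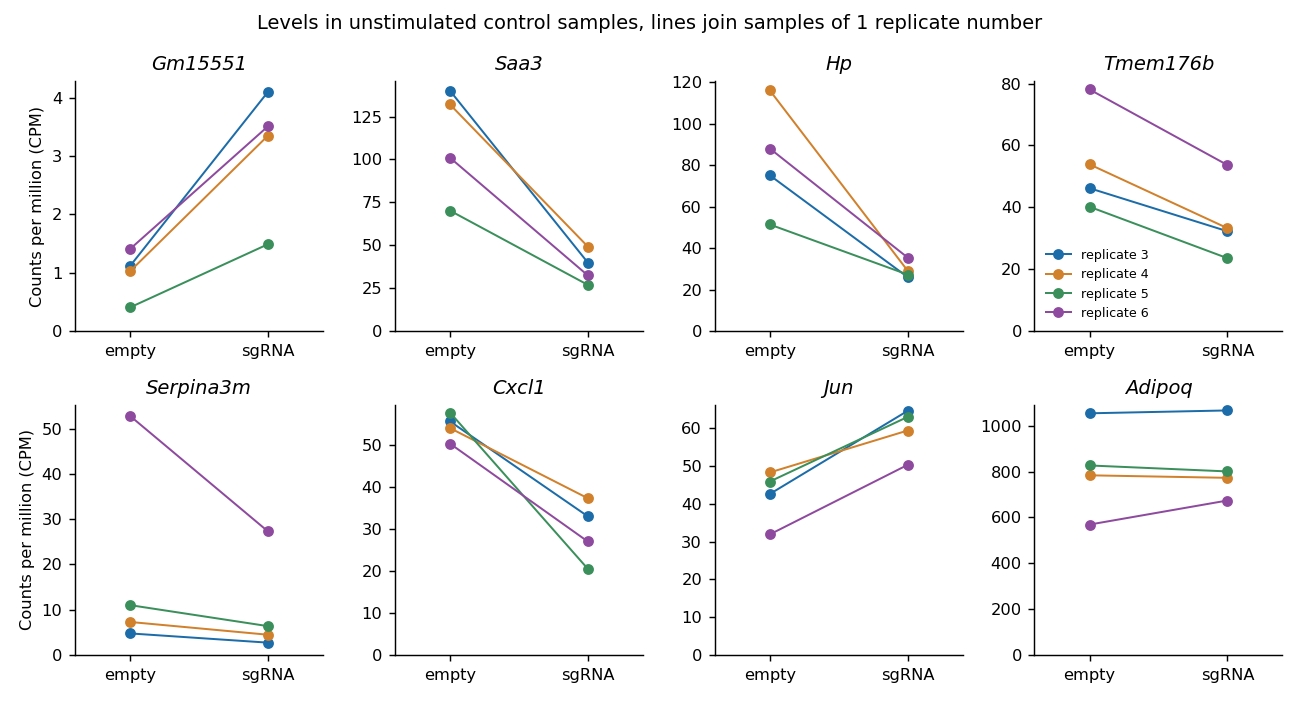
Levels (CPM, linear axes from 0) in the 4 empty vector and 4 sgRNA control samples; each colour is 1 replicate number and each line joins the samples of 1 pair. *Gm15551* and *Jun* are higher with the sgRNA in 4 of 4 pairs, *Saa3*, *Hp*, *Tmem176b*, *Serpina3m* and *Cxcl1* are lower in 4 of 4, and *Adipoq* has no common direction.

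Neither the host gene nor another tested gene nearby passed the threshold. *Camk2d*, which encodes a calcium- and calmodulin-dependent protein kinase, had 65.2, 70.5, 74.8 and 74 CPM with the empty vector and 67.1, 66.1, 78.9 and 74.1 CPM with the sgRNA, in the order of replicates 3, 4, 5 and 6. Its log2 fold change was 0.0062 with SE 0.061 (adjusted p = 0.993). Within 1 Mb of *Gm15551* 46 genes are annotated, and 4 besides the target were expressed enough to be tested. Apart from *Camk2d*, these had log2 fold changes of 0.17 (*Zgrf1*, SE 0.11), 0.13 (*Ank2*, SE 0.21) and 0.013 (*Larp7*, SE 0.094), with adjusted p between 0.868 and 0.992. Of 12 tested calcium and calmodulin-dependent kinase and phosphatase genes 7 were higher and 5 lower, with a median log2 fold change of 0.01, and without the pair of replicate 5 5 were higher and 7 lower.

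Across the transcriptome few genes passed the test. Of 12464 tested genes 4 passed the threshold (adjusted p under 0.05 and absolute log2 fold change over 0.5 in the edgeR quasi-likelihood fit), which is 0.0321%, and all 4 fell. At an unadjusted p under 0.05 299 genes were higher (2.4%) and 430 lower (3.45%), against 168 and 277 without replicate 5 and 514 and 568 without replicate 6. The 4 sgRNA samples lay above all 4 empty vector samples for 68 genes (0.546%) and below them for 101 genes (0.81%). The median log2 fold change over all tested genes was -0.00069, 49.7% were higher, and the quartiles were -0.09 and 0.08. Without the pairing 0 genes passed in edgeR, with 184 at an unadjusted p under 0.05, and 4 passed in DESeq2. With the pairing DESeq2 called 16 genes and limma-voom 7.

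**Figure D2:**
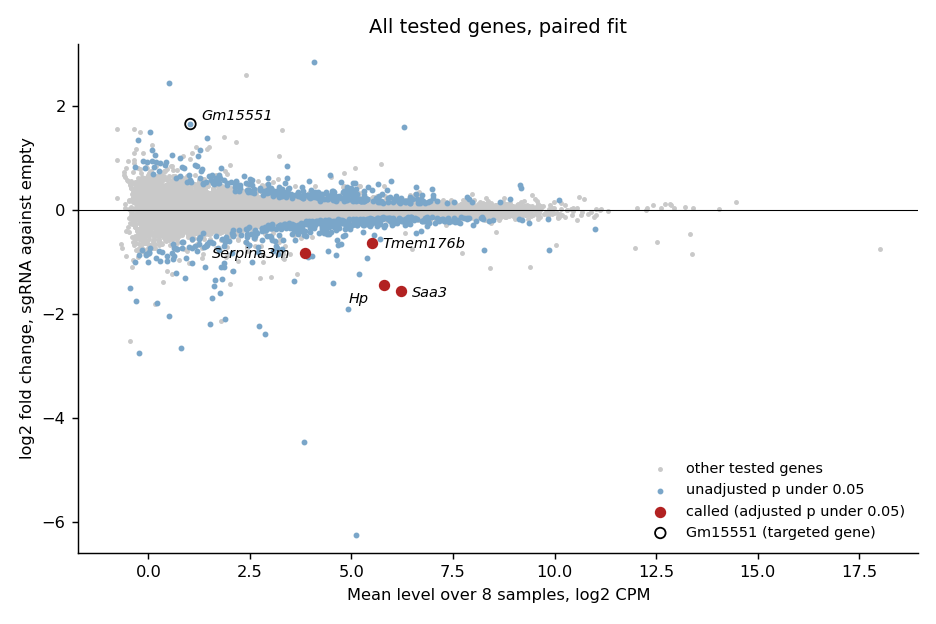
Log2 fold change (sgRNA against empty vector, paired fit) of the 12464 tested genes against their mean level over the 8 samples (log2 CPM). Blue points have an unadjusted p under 0.05, red points are the 4 genes that passed the threshold, all lower, and the black ring is *Gm15551*, among low-abundance genes at 1.66.

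The gene that fell most clearly was *Saa3* (ENSMUSG00000040026, chr7:46711998-46715700, minus strand), which encodes serum amyloid A3, an acute-phase apolipoprotein made outside the liver, also by adipocytes. It had 140, 132, 70.2 and 101 CPM in empty vector replicates 3, 4, 5 and 6 and 40, 49.3, 27 and 32.5 CPM in the matching sgRNA samples. Every sgRNA sample was below every empty vector sample. The means were 111 ± 32.1 and 37.2 ± 9.67 CPM (SD, n = 4 each), and the log2 fold change was -1.56 with SE 0.083 (adjusted p = 0.000215). *Saa3* was past the threshold in 15 of 16 alternatives, the exception being the unpaired edgeR fit, and its adjusted p was at most 0.00312 with 1 pair left out.

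*Hp* (ENSMUSG00000031722, chr8:109575128-109579172, minus strand) encodes haptoglobin, the plasma protein that binds free haemoglobin. It had 75.1, 116, 51.4 and 88 CPM with the empty vector and 26.1, 29.2, 27.3 and 35.5 CPM with the sgRNA. The groups did not overlap, and the 4 sgRNA values were close together. The log2 fold change was -1.44 with SE 0.15 (adjusted p = 0.0258). The call was lost without replicate 3 (adjusted p = 0.103), without replicate 6 (adjusted p = 0.0965), in the robust fit and in the unpaired edgeR fit. *Hp* also did not pass when tested against the fold change bound.

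*Tmem176b* (ENSMUSG00000029810, chr6:48833818-48841496, minus strand), a membrane protein of the MS4A-like family studied mostly in immune cells, had 46.2, 53.9, 40.2 and 78.1 CPM with the empty vector and 32.3, 33.3, 23.6 and 53.7 CPM with the sgRNA. The ranges overlapped because replicate 6 was high in both groups, but the sgRNA sample was lower in 4 of 4 pairs. The log2 fold change was -0.63 with SE 0.071 (adjusted p = 0.0438, and 0.0701 to 0.115 with 1 pair left out). Its neighbour *Tmem176a* on the opposite strand, named after its values were seen, had means of 30.8 and 20 CPM and a log2 fold change of -0.66 with SE 0.082 (adjusted p = 0.052). The annotated bodies of the 2 genes overlap, so their reads cannot be told apart where they do.

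*Serpina3m* (ENSMUSG00000079012, chr12:104338486-104394257, plus strand) belongs to the mouse cluster of serine protease inhibitors related to α1-antichymotrypsin. It had 4.75, 7.28, 11 and 52.8 CPM with the empty vector and 2.71, 4.46, 6.36 and 27.3 CPM with the sgRNA. Replicate 6 was several times above the others in both groups. The ranges overlapped, also among the other replicates, and the direction was the same in 4 of 4 pairs. The log2 fold change was -0.82 with SE 0.098 (adjusted p = 0.0497, and 0.0752 to 0.409 with 1 pair left out). Its paralog *Serpina3n* had 10.1, 19.2, 12.4 and 172 CPM with the empty vector and 3.81, 5.74, 11.2 and 58.1 CPM with the sgRNA. Its log2 fold change was -1.23 with SE 0.22 (adjusted p = 0.202). Reads of such close paralogs may be divided between them by the counting. With the ribosomal RNA share as a further term of the fit, *Saa3* and *Hp* still passed the threshold. *Tmem176b* and *Serpina3m* did not, and *Serpina3n* and *Lcn2* did. That fit called 6 genes, among them also *Rps12-ps3* and *Gm20388*, the latter at a log2 fold change of 20.8. The share was larger with the empty vector in 4 of 4 pairs, so this fit separates it from the sgRNA only in part. Over 16 alternatives the log2 fold change was between -0.67 and -0.56 for *Tmem176b* and between -0.89 and -0.76 for *Serpina3m*.

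Acute-phase protein genes were lower as a group. Of 16 tested genes of this list 15 were lower and 1 higher, with a median log2 fold change of -0.5 against -0.00069 over all tested genes. *Saa3* and *Hp* fell, and 10 of the 16 were lower at an unadjusted p under 0.05 with none higher, beside 3.45% and 2.4% of all tested genes. *Lcn2*, which encodes the iron-siderophore binding protein lipocalin 2, was among those 10. It had 300, 421, 292 and 524 CPM with the empty vector and 142, 239, 254 and 269 CPM with the sgRNA, and the groups did not overlap. Its log2 fold change was -0.77 with SE 0.13 (adjusted p = 0.131). *Cp*, the copper oxidase ceruloplasmin, and *Steap4*, a metalloreductase, had log2 fold changes of -0.69 (SE 0.13) and -0.47 (SE 0.12). The orosomucoid genes were near 0, with log2 fold changes of -0.019 for *Orm1*, -0.066 for *Orm2* and 0.071 for *Orm3*. The median of the list within a pair was -0.4, -0.51, -0.14 and -0.83 in replicates 3, 4, 5 and 6, and without the pair of replicate 5 15 of 16 were lower with a median of -0.59. The list was written with earlier results of these data known, so its direction is not independent evidence. The authors reported that *Lcn2*, *Saa3* and *Hp* also differed with other sgRNAs in several datasets of this cell system. They interpreted these genes as an artefact of the system. The samples used here hold no other guide, so this was not tested.

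**Figure D3:**
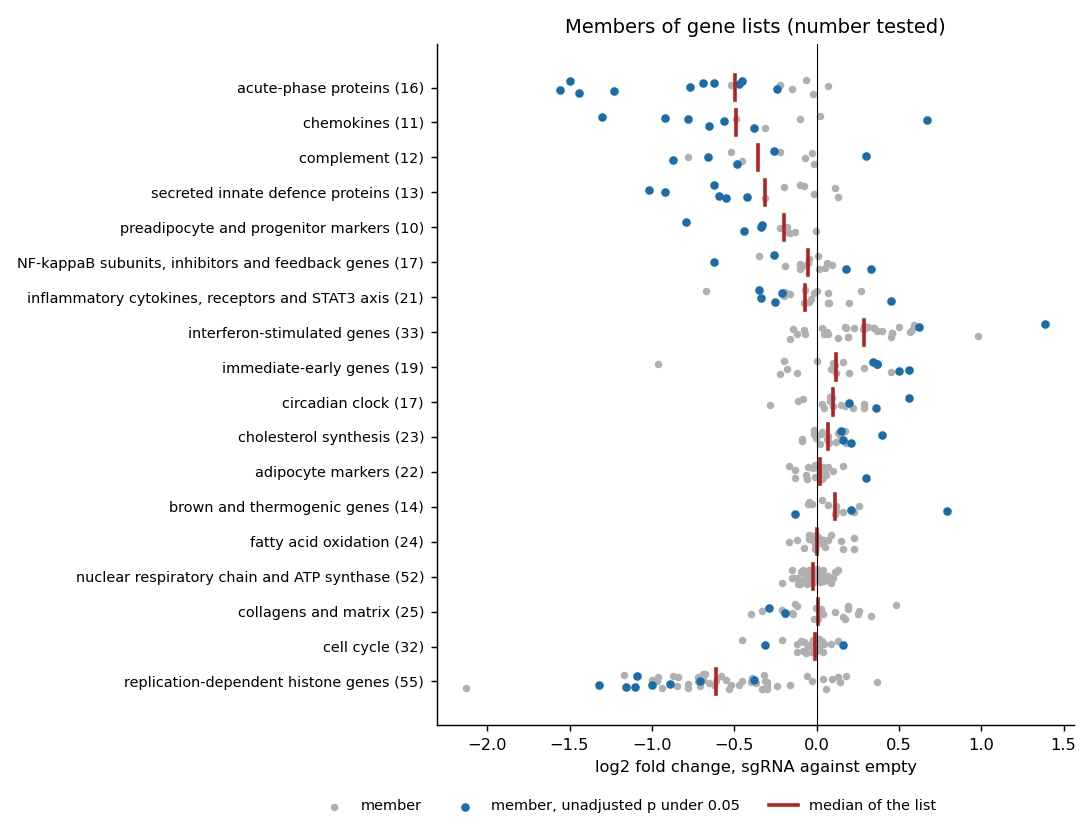
Log2 fold change of each tested member of 18 gene lists (grey, or blue at an unadjusted p under 0.05) and the median of each list (red line), with the number tested in parentheses. Acute-phase, chemokine, complement and innate defence lists lie to the left of 0, metabolic and adipocyte lists around 0, and the histone list to the left with a wide spread.

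Chemokines, the secreted proteins that attract leukocytes, were mostly lower, although none passed the threshold in the paired edgeR fit. Of 11 tested 9 were lower and 2 higher, with a median log2 fold change of -0.49, and 6 were lower and 1 higher at an unadjusted p under 0.05, beside 3.45% and 2.4% of all tested genes. *Cxcl1*, a neutrophil attractant, had 55.6, 54, 57.7 and 50.3 CPM with the empty vector and 33, 37.3, 20.5 and 27 CPM with the sgRNA. The groups did not overlap, and the log2 fold change was -0.92 with SE 0.13 (adjusted p = 0.0747). *Cxcl1* passed in DESeq2 with and without the pairing and in edgeR without replicate 5. The monocyte attractant *Ccl2* had 42.7, 35.4, 29.3 and 20.4 CPM with the empty vector and 34.2, 29.8, 10.8 and 13 CPM with the sgRNA, lower in 4 of 4 pairs with overlapping groups. Its log2 fold change was -0.65 (SE 0.17, adjusted p = 0.687). Its relative *Ccl7* had a log2 fold change of -0.78 (SE 0.21), and *Cxcl5* one of -1.3 (SE 0.31) at means of 2.71 and 1.06 CPM. The interferon-induced chemokine *Cxcl10* went the other way, with means of 17.1 and 27.6 CPM, and its log2 difference of 0.67 had SE 0.19 (adjusted p = 0.74). Without the pair of replicate 5 7 of 10 chemokines were lower, with a median of -0.45.

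Stretches before start sites are shown for the genes of these groups with the clearest differences and an entry in RefSeq (GRCm38.p6), *Saa3* on the minus strand at chr7:46715677-46715926 and *Cxcl1* on the plus strand at chr5:90890995-90891244.
Saa3: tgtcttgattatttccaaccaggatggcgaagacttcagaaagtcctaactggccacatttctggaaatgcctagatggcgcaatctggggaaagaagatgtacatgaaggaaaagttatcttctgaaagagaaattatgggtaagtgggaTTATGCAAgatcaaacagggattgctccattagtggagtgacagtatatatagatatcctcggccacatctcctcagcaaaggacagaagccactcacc
Cxcl1: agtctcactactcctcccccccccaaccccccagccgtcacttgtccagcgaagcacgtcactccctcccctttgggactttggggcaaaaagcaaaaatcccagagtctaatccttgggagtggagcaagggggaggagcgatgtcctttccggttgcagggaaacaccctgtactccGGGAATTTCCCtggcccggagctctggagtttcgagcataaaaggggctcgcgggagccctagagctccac
Capitals mark matches to a C/EBP motif (TTNNGCAA) in *Saa3* and to the NF-κB consensus in *Cxcl1*, both strands searched, where 2 overlapping matches form the capital run of *Cxcl1*. The C/EBP match of *Saa3* lies 92 to 99 bases before the start and the NF-κB matches of *Cxcl1* 61 to 71 bases before it. Of all 32851 stretches of 250 bases before a start, 9.56% held the C/EBP letters and 3.9% the NF-κB consensus. A STAT motif (TTCNNNGAA), present in 7.02% of stretches, had no match in either. Of the other genes scanned, *Lcn2* and *Ptx3* held a C/EBP match, and *Serpina3n* and *Jun* held no match to these motifs. The NF-κB consensus was found only before *Cxcl1*.

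The lists of signalling genes had medians near 0. Of 17 tested NF-κB subunits, inhibitors and feedback genes 10 were lower and 7 higher, with a median log2 fold change of -0.05. At an unadjusted p under 0.05 2 were lower and 2 higher, beside 3.45% and 2.4% of all tested genes. *Nfkbia*, which encodes the inhibitor IκBα and is itself induced by NF-κB, had 84.6, 72.6, 101 and 93.6 CPM with the empty vector and 66.2, 61.6, 77 and 90.3 CPM with the sgRNA. It was lower in 4 of 4 pairs, least in replicate 6, with a log2 fold change of -0.26 (SE 0.072), and *Irak3*, an inhibitor of Toll-like receptor signalling, one of -0.62 (SE 0.16). *Chuk*, the kinase IKKα, had one of 0.18 (SE 0.062) and *Vcam1* one of 0.33 (SE 0.09), each higher in 4 of 4 pairs. Of 21 tested cytokine, receptor and STAT3 axis genes 14 were lower and 7 higher, with a median of -0.07, and of -0.16 without the pair of replicate 3. Of these 21, 4 were lower and 1 higher at an unadjusted p under 0.05, beside 3.45% and 2.4% of all tested genes. The receptor genes *Osmr*, *Tnfrsf1a* and *Il6st* had log2 fold changes of -0.35, -0.25 and -0.21 and were each lower in 4 of 4 pairs. *Cebpb*, a transcription factor of both inflammation and adipogenesis, had means of 82.8 and 111 CPM (log2 fold change 0.45, SE 0.18). No gene of these lists passed the threshold, with adjusted p of at least 0.687.

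Complement genes were lower in 11 of 12 cases, with a median log2 fold change of -0.35. *Cfb*, which encodes factor B of the alternative pathway, had 53.2, 39.4, 17 and 17.4 CPM with the empty vector and 24.9, 23.9, 11.9 and 7.9 CPM with the sgRNA. It was lower in 4 of 4 pairs, with overlapping ranges because replicates 3 and 4 were high in both groups, and its log2 fold change was -0.87 with SE 0.11 (adjusted p = 0.0557). *Cfb* passed in 7 of 16 alternatives, among them DESeq2 with the pairing, limma-voom and edgeR without replicate 5. The central component *C3*, with means of 144 and 123 CPM, had a log2 fold change of -0.26 (SE 0.067). *Cfd*, the adipocyte-secreted protease adipsin, was the exception at 0.3 (SE 0.087), higher in 4 of 4 pairs. Of 13 tested genes for secreted innate defence proteins and their sensors 11 were lower, with a median of -0.31. *Wfdc21*, a whey acidic protein family member, had 75, 63.7, 49.6 and 57.6 CPM with the empty vector and 51.6, 45.3, 30 and 42.4 CPM with the sgRNA. Only sgRNA replicate 3 reached into the empty vector range, and the log2 fold change was -0.55 with SE 0.07 (adjusted p = 0.0552). *Ptx3*, a soluble pattern recognition molecule, had 47.4, 60, 35.2 and 72 CPM and 36.1, 32.7, 25.5 and 43.1 CPM, and its log2 difference of -0.62 had SE 0.091 (adjusted p = 0.0747). *Wfdc21* and *Ptx3* passed in DESeq2 with the pairing and in the robust fit, and *Wfdc21* also in limma-voom and with the ribosomal RNA gene left out. The protease inhibitors *Timp1* and *Slpi* were lower in 4 of 4 pairs, with log2 fold changes of -0.59 (SE 0.12) and -1.02 (SE 0.24). Without the pair of replicate 5 8 of 11 complement and 10 of 13 innate defence genes were lower.

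Markers of preadipocytes were lower as well, although none passed the threshold in the paired edgeR fit. All 10 tested were lower, with a median log2 fold change of -0.2, 4 of them at an unadjusted p under 0.05, beside 3.45% of all tested genes. *Ly6a*, the stem cell antigen Sca-1, had 19.5, 21.9, 6 and 61.2 CPM with the empty vector and 10.8, 16.2, 2.91 and 32.8 CPM with the sgRNA. It was lower in 4 of 4 pairs, with wide differences between replicate numbers and overlapping groups, and its log2 fold change was -0.79 with SE 0.11 (adjusted p = 0.0703). *Ly6a* passed in DESeq2 with the pairing, in the robust fit and without replicate 4. *S100a6*, *S100a4* and *Cd44* had log2 fold changes of -0.44, -0.34 and -0.33, while the stromal marker *Pdgfra* had -0.16 (SE 0.2) and *Vim* -0.0051 (SE 0.088). The summed level of the 20 listed genes, dominated by *Vim*, was 498 to 864 CPM with the empty vector and 507 to 816 CPM with the sgRNA, *Igfbp5* was at 0 and *Dpp4* had 1 count in all. Without the pair of replicate 5 9 of 9 tested markers were lower (median -0.19), without that of replicate 4 9 of 10 (median -0.35), and without that of replicate 6 7 of 10 (median -0.23). The part of a different share of undifferentiated cells in the lower inflammatory genes was not tested, and in bulk RNA fewer cells of a type and less RNA per cell cannot be told apart.

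Interferon-stimulated genes were higher in 28 of 33 cases, with a median log2 fold change of 0.29, but this rested on 1 pair. The median within a pair was 1.1 in replicate 4 and -0.01, -0.31 and 0.01 in replicates 3, 5 and 6. *Mx2*, an antiviral GTPase, had 4.81, 0.755, 0.409 and 0.652 CPM with the empty vector and 5.86, 6.69, 0.786 and 1.68 CPM with the sgRNA. Without the pair of replicate 4 9 of 33 genes were higher, with a median of -0.07 and none at an unadjusted p under 0.05, whereas without the pair of replicate 5 31 of 33 were higher, 7 of them at such a p, beside 168 of 12540 genes in that fit. With all 4 pairs *Mx2* and *Oas1a* had such a p, beside 2.4% of all tested genes, and no gene of the list passed the threshold. Of 14 MHC class I presentation genes 8 were higher and 6 lower, with a median of 0.04, and without the pair of replicate 4 6 were higher, with a median of -0.02.

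**Figure D4:**
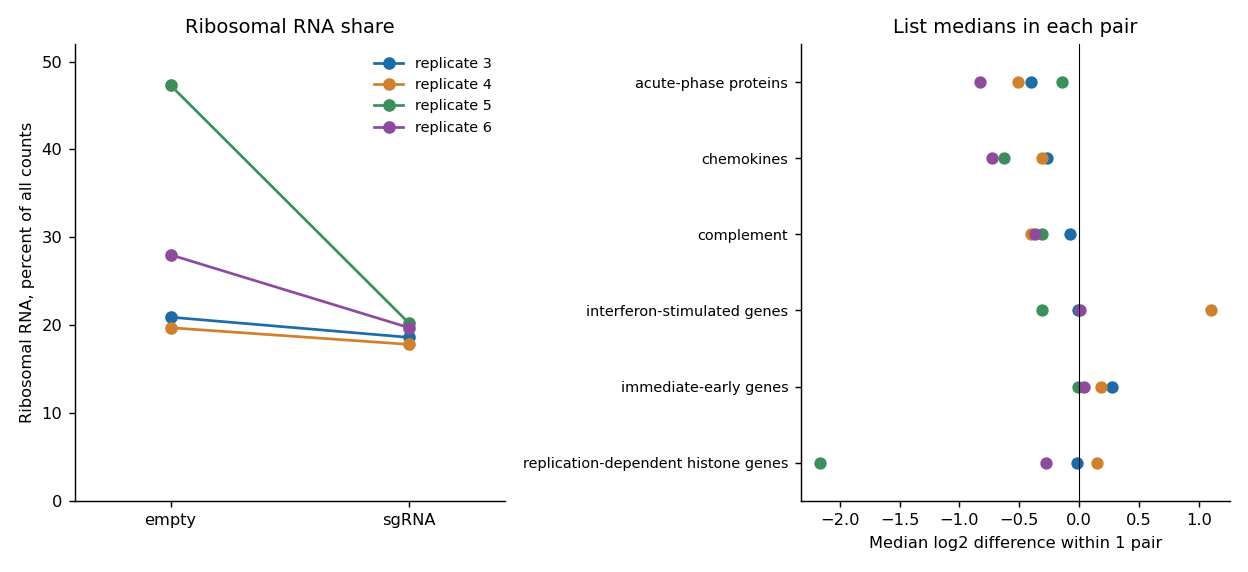
Left, ribosomal RNA as a percent of all counts in each sample, with lines joining pairs; empty vector replicate 5 is at 47.3% and the other 7 samples between 17.8% and 28%. Right, the median log2 difference (sgRNA minus empty vector) of 6 gene lists within each pair; acute-phase, chemokine and complement medians are below 0 in 4 of 4 pairs, interferon-stimulated genes are at 1.1 in replicate 4 only, and histone genes at -2.16 in replicate 5.

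Immediate-early genes, which cells switch on soon after a signal, were mostly higher, although none passed the threshold in the paired edgeR fit. Of 19 tested 14 were higher, with a median log2 fold change of 0.12, and 5 were higher at an unadjusted p under 0.05 (*Jun*, *Dusp1*, *Atf3*, *Junb* and *Jund*), beside 2.4% of all tested genes. *Klf2*, a transcription factor named after its values were seen, had the lowest value of the list, with means of 0.99 and 0.555 CPM and a log2 fold change of -0.96 (SE 0.51), lower in 4 of 4 pairs. The median within a pair was 0.27, 0.18, -0.01 and 0.04 in replicates 3, 4, 5 and 6. *Jun*, a subunit of the AP-1 transcription factor, had 42.6, 48.3, 45.9 and 31.9 CPM with the empty vector and 64.6, 59.4, 63 and 50.3 CPM with the sgRNA. The groups did not overlap, and its log2 fold change was 0.5 with SE 0.076 (adjusted p = 0.0857). *Jun* passed in DESeq2 with the pairing and in the robust fit. *Junb* had 17.6, 15.1, 11.3 and 7.5 CPM with the empty vector and 17.5, 19.5, 17.5 and 18.5 CPM with the sgRNA, so that its 2 groups differed mainly in replicates 5 and 6. Of 17 circadian clock genes 14 were higher, with a median of 0.1. The repressor genes *Ciart*, *Bhlhe41* and *Nr1d2* had log2 fold changes of 0.56, 0.36 and 0.2 and were each higher in 4 of 4 pairs, with adjusted p of at least 0.753. With 1 pair left out the median was 0.08 to 0.22 for immediate-early genes and 0.06 to 0.18 for clock genes. Immediate-early genes were higher in 12 of 19 cases without replicate 3, 13 of 19 without replicate 4 and 16 of 18 without replicate 5. Without replicate 3, 5 of them were higher and 2 lower at an unadjusted p under 0.05, beside 309 and 371 of 12541 genes. Clock genes were higher in 12 of 17 cases without replicate 3 and 14 of 17 without replicate 4.

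Adipocyte identity genes showed no common direction. Of 22 tested adipocyte markers 12 were higher and 10 lower, with a median log2 fold change of 0.02, and without the pair of replicate 6 8 of 22 were higher, with a median of -0.02. *Pparg*, the master regulator of adipogenesis, had means of 143 ± 10 and 143 ± 14.1 CPM (log2 fold change -0.0067, SE 0.057), and *Adipoq* 809 ± 199 and 829 ± 168 CPM (0.049, SE 0.077). Of 18 adipogenic transcription factors 13 were higher, with a median of 0.03. Of 14 tested brown and thermogenic genes 10 were higher, with a median of 0.11. *Cidea*, a lipid droplet protein of brown fat, had 1.37, 0.687, 2.73 and 1.96 CPM with the empty vector and 1.98, 0.797, 7.23 and 3.27 CPM with the sgRNA. The largest difference was in replicate 5, the groups overlapped, and the log2 fold change was 0.79 with SE 0.25 (adjusted p = 0.741). *Elovl3*, a fatty acid elongase of brown fat, had a log2 fold change of 0.11 (SE 0.067).

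Metabolic lists lay close to the median of all genes. Of 52 nuclear respiratory chain and ATP synthase genes 33 were lower, with a median log2 fold change of -0.02 and none at an unadjusted p under 0.05. The direction of this list depended on the pairs, with 35 of 52 higher without replicate 5 and 5 of 52 without replicate 6. Fatty acid oxidation had 12 of 24 genes higher (median 0.00), and the mitochondrial genome 10 of 15 (median 0.04). These counts were 9 of 24 and 3 of 15 without the pair of replicate 6. Cholesterol synthesis had 17 of 23 genes higher (median 0.07), 4 of them (*Insig1*, *Fdps*, *Pmvk* and *Sqle*) at an unadjusted p under 0.05, beside 2.4% of all tested genes, and without the pair of replicate 5 13 of 23 were higher and none had such a p. Fatty acid and triglyceride synthesis had 15 of 22 higher (median 0.03), lipolysis and lipid droplet genes 11 of 16 (median 0.07), and glycolysis 21 of 26 (median 0.07). Lipolysis had 9 of 16 higher (median 0.02) without the pair of replicate 6, and glycolysis 16 of 26 (median 0.02) without that of replicate 5 and a median of -0.07 with the ribosomal RNA share as a further term. Medians this close to 0 also changed in size or sign in several of the other lists when a pair was left out. Adipokines had 12 of 18 higher (median 0.06), including *Vegfa* (log2 fold change 0.23, SE 0.074) and *Nampt* (0.26, SE 0.094), each higher in 4 of 4 pairs. No gene of these lists passed the threshold.

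Lists on growth, stress and matrix were also near 0. Cell cycle genes were higher in 13 of 32 cases (median -0.01), p53 targets in 7 of 18 (-0.03), heat shock proteins in 5 of 14 (-0.07), proteasome subunits in 12 of 31 (-0.02) and antioxidant genes in 12 of 26 (-0.02). The unfolded protein and integrated stress response had 22 of 30 higher (0.06) and the glucocorticoid-responsive genes 13 of 17 (0.08). Proteasome subunits were higher in 18 of 31 cases without the pair of replicate 3, 16 of 31 without that of replicate 4 and 5 of 31 without that of replicate 6, and antioxidant genes in 15 of 26 without that of replicate 5. Collagens and matrix had 13 of 25 higher (0.01, and 10 of 25 without the pair of replicate 5) and smooth muscle and contractile genes 6 of 14 (-0.01, and 8 of 14 without the pair of replicate 6). Within these, *Abcc3*, an export pump for organic anions, had 4.06, 4.6, 2.45 and 3.15 CPM with the empty vector and 1.39, 2.07, 1.73 and 1.44 CPM with the sgRNA. Its groups did not overlap, and its log2 fold change was -1.1 with SE 0.22 (adjusted p = 0.315).

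RNAs that lack poly(A) tails were mostly lower, with the largest differences in the pair of replicate 5. Of 55 tested genes of the replication-dependent histone list 48 were lower, with a median log2 fold change of -0.61. The list also names *H1f0*, which is not of this class. Of 7 other RNAs without poly(A) tails 6 were lower, with a median of -1.09. *Rn7sk*, a small nuclear RNA that restrains transcription elongation, had 374, 230, 2920.2 and 704 CPM with the empty vector and 316, 277, 273 and 299 CPM with the sgRNA. Its high value was in empty vector replicate 5, the sample with the most ribosomal RNA. The median within a pair was -0.02, 0.15, -2.16 and -0.28 for histone genes and -0.5, 0.28, -3.42 and -1.09 for the other RNAs in replicates 3, 4, 5 and 6. Without the pair of replicate 5 32 of 54 histone genes were lower, with a median of -0.05, and 5 of 7 other RNAs, with a median of -0.4. When the fit held the ribosomal RNA share as a further term, the median turned to 0.3 for histone genes and to 0.18 for the other RNAs without poly(A) tails. In that fit the median was -0.65 for acute-phase, -0.29 for chemokine, -0.33 for complement and -0.46 for innate defence genes. It was 0.59 for interferon-stimulated and 0.26 for immediate-early genes. Because the share was larger with the empty vector in 4 of 4 pairs, these medians separate it from the sgRNA only in part.

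By the rule for extremes (unadjusted p under 0.01, mean of at least 5 CPM and 1 direction in 4 of 4 pairs), 36 genes were higher and 87 lower. The 12 highest had log2 fold changes of 0.42 to 0.65, and none passed the threshold in the paired edgeR fit, while DESeq2 with the pairing called *Jun* and *Scd3*. Besides *Jun*, they held the stearoyl-CoA desaturase *Scd3* (0.56, SE 0.1), the arrestin family members *Txnip* (0.42, SE 0.072) and *Arrdc3* (0.52, SE 0.099), the RNA-decay factor *Zfp36l2* (0.42, SE 0.1), *Tbc1d16*, *Cd209c*, *Cdsn*, the pseudogene *Gm11331*, and the noncoding models *Gm10076* and *Gm42923*. *Scd3* had 33.3, 46.7, 54 and 64.7 CPM with the empty vector and 44, 64.7, 107 and 85 CPM with the sgRNA, overlapping between groups (adjusted p = 0.2). Its far more abundant paralog *Scd1* had means of 7035.3 and 7710.8 CPM (log2 fold change 0.13, SE 0.16). Whether reads were divided between *Scd3* and *Scd1* by the counting was not tested. *Txnip*, which restrains glucose uptake, had 571, 489, 405 and 523 CPM with the empty vector and 752, 735, 530 and 645 CPM with the sgRNA. Only sgRNA replicate 5 lay within the empty vector range (adjusted p = 0.152). The remaining one was a second, low model of *Aldoa* (ENSMUSG00000114515, 3.99 and 6.31 CPM), whose main model had a log2 fold change of 0.03, so the way reads were split between the 2 models is uncertain.

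Of the 12 lowest, 7 were acute-phase, chemokine, complement or progenitor genes described above, and 1 was *Serpina3m*. The other 4 are uncertain because they may share reads with other genes through sequence or position, which was not tested. *Gm20388* (log2 fold change -6.26, SE 1.7) spans a region with 60 other tested genes and had 35.8 to 99.3 CPM with the empty vector but 0, 32.1, 0 and 0 CPM with the sgRNA. The processed pseudogene *Rps6-ps4* (-4.47, SE 0.75) copies a ribosomal protein gene. *Derpc* (-1.37, SE 0.2, adjusted p = 0.0747) overlaps *Chtf8* and *Has3* and had 10.4 to 26.1 CPM with the empty vector and 5.9 to 7.84 CPM with the sgRNA. *Derpc* passed in 4 of 16 alternatives, DESeq2 with and without the pairing, no filter on low counts and replicate 5 left out. *Bc1* (-1.4, SE 0.3) is a small noncoding RNA related in sequence to a repeat family, with 0 overlapping gene models. With the ribosomal RNA share as a further term, *Gm20388* and *Rps6-ps4* turned positive.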

How the data were processed

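Polyadenylated RNA of 16 wt1-SAM samples was sequenced in paired ends, and 8 samples are used here. The authors filtered reads with cutadapt, quantified them with salmon against the GENCODE M22 transcriptome of GRCm38, alone or with RNAcentral, and deposited a table of estimated counts, rounded to integers and without normalization. Tool versions and strand use are not given in the sources used here. Ambiguous reads are divided between similar transcripts, which limits paralogs and overlapping genes. Coordinates came from GENCODE M21, an earlier release on the same build (54094 of 54347 genes matched). Genes passing filterByExpr (minimum count 10, minimum total 15) were tested in R 4.3.3 with edgeR 4.0.16 (TMM, glmQLFit, glmQLFTest, two-sided) with the replicate number as a block and Benjamini-Hochberg adjustment over 12464 genes. SE is the log2 fold change divided by the square root of the F statistic.

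The titles give the replicate numbers. Deviations from group means correlated between samples of the same number by 0.374, 0.388, 0.441 and 0.527 for replicates 3 to 6, so the numbers were treated as pairs. Replicates 3 and 4 correlated nearly as much with each other (0.364 and 0.329). The median biological coefficient of variation was 9.56% with the replicate block and 17.1% without it. Differences within a pair used log2 CPM with a prior count of 2. Tested on counts simulated for this comparison (12276 genes), the fit recovered 93% of 100 genes changed by 0.75 on the log2 scale. It recovered 100% of 100 changed by 1.5, with 20 false calls in all. All changed genes had a mean of at least 5 CPM, which *Gm15551* did not reach. Counts were drawn from the fitted model, and more genes were changed than passed in the real fit. These shares are therefore not the power for low genes such as *Gm15551* or for the real samples.

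Alternatives were no block, a fit to 16 samples, DESeq2 1.42.0 and limma-voom (3.58.1), RLE scaling, other filters, the ribosomal RNA gene left out or its share as a covariate, other quasi-likelihood settings and each pair left out. Named genes were *Gm15551*, tested genes within 1 Mb, genes past the threshold, the 12 highest and 12 lowest (unadjusted p under 0.01, mean of at least 5 CPM, 4 of 4 pairs), and of each list the members with the smallest p and set markers. For duplicate symbols the model with the most counts stood for a list. The samples and lists were chosen with earlier results of these data known.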

Additional observations from a re-analysis of the deposited data

Results flagged for a closer look

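In groups of 4 samples, 6 of 56 checks found 1 sample farther from the others than Dixon's critical ratio allows, and chance alone would give such a result in about 1 in 20 groups. Of these, 4 concerned replicate 6 and serine protease inhibitors. *Serpina3m* stood at 52.8 CPM in empty vector replicate 6, against 4.75 to 11 CPM in the others, and at 27.3 CPM in sgRNA replicate 6, against 2.71 to 6.36 CPM. *Serpina3n* stood at 172 CPM in empty vector replicate 6, against 10.1 to 19.2 CPM, and at 58.1 CPM in sgRNA replicate 6, against 3.81 to 11.2 CPM. In both genes the high sample had the same replicate number in both groups. *Gm20388* stood at 32.1 CPM in sgRNA replicate 4, against 0 in the other 3 sgRNA samples. *Rps6-ps4* stood at 5.11 CPM in empty vector replicate 6, against 31.1 to 35.6 CPM.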

How the results depend on the processing

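The number of genes past the threshold, 4 with the replicate block, was 0 with no replicate block (184 at an unadjusted p under 0.05), 16 with DESeq2 and the block, 7 with limma-voom, 13 without a filter on low counts, 7 with the ribosomal RNA gene left out, 10 with the robust fit, 1 when tested against the fold change bound, and 1 to 8 with 1 pair left out. It was 8 without replicate 5, 2 without replicate 3 and 1 without replicate 6, and *Saa3* was among them each time. DESeq2 with no block called 4 genes, of which 2 were among the 4. *Gm15551* kept its direction in 16 of 16 alternatives, with log2 fold changes of 1.57 to 1.8, and passed the threshold without the filter on low counts (1.68) and with the robust fit (1.66). With the ribosomal RNA share as a further term, *Gm20388* reversed to 20.8 and *Rps6-ps4* to 1.82. The cause was not tested. Over the named genes and alternatives 347 values kept their direction and their side of an adjusted p of 0.05, the fold change bound set aside, 29 newly went under it and 22 no longer did, and of the list medians 592 moved by less than the spread between pairs and 16, in 10 lists, by more. With 3 to 18 counts of *Gm15551* in an empty vector sample, depth limits its precision.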
